A study of Homo sapiens with 9 samples.

Results

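GATA3, SPDEF, FOXA1, TFAP2A, TFAP2C, ELF3 and ANKRD30A are genes of luminal breast epithelium, and ESR1 and NR3C1 encode its oestrogen receptor alpha and glucocorticoid receptor. They were chosen by name, and all 9 were found among the 56505 gene symbols listed in the count tables. In the breast, luminal cells line the ducts and make milk, while basal cells surround them. GATA3 and FOXA1 hold the luminal state together with the oestrogen receptor: FOXA1 opens chromatin for the receptor, and GATA3 is needed for luminal cells to form and persist. The receptors are transcription factors that act when their steroid is bound, and the glucocorticoid receptor, unlike the oestrogen receptor, is active in most tissues.

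The samples were 9 RNA libraries of MDA-MB-231-D3H2LN, a luciferase-expressing derivative of MDA-MB-231, a human breast cancer line known for lacking oestrogen and progesterone receptors and for a mesenchymal profile. There were 3 libraries each of JAG1 knockout clone 1, JAG1 knockout clone 2 and the unedited wild-type line, and per the labels all were kept in the same high-glucose serum-containing medium. JAG1 encodes a membrane-bound ligand of the Notch receptors. Each knockout clone descended from 1 cell after delivery of Cas9 protein with guide RNAs to a JAG1 exon, was described as homozygous, and is 1 line, so the values describe these lines. The labels do not say that replicates were separate cultures, and the p-values therefore reflect library-to-library spread alone, possibly of technical origin.

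Total counts per library were between 16890890 and 22456164, and 16921 genes had enough counts for the test. JAG1 had 2130, 1699 and 1657 counts in clone 1, 1230, 1406 and 1190 in clone 2, and 5069, 3803 and 3592 in wild type, or 94.5 ± 14.9 CPM (counts scaled to library size) in clone 1, 66.9 ± 9.87 CPM in clone 2 and 196 ± 44.7 CPM in wild type (SD, n = 3 each), lower in every library of both clones. The mesenchymal transcript VIM stood at 236 ± 53.5 RPKM (CPM per kilobase of gene length) and CDH1 at 0.081 ± 0.0493 RPKM in wild type (SD, n = 3). Of other mesenchymal markers, ZEB1 had 966, 1469 and 1280 counts in wild type, whereas CDH2 had 10, 12 and 4 and TWIST1 2, 0 and 0. The simple keratins KRT8 and KRT18 were also present, at 60.1 ± 6.31 and 68.1 ± 12.4 RPKM in wild type. So were the epithelial genes EPCAM and CLDN4, at 17.9 ± 1.13 and 70.1 ± 9.8 CPM in wild type. The markers were mixed, so the word luminal names the genes here and not the state of the cells. A list of 14 markers of other cells held blood and endothelial genes and the stromal genes COL1A1, COL1A2 and PDGFRB. Of these 14, CD3E, HBB and HBA1 were among those at 0 counts in all 9 libraries. The summed level of the list was 24.2 to 26.2 CPM in clone 1, 20.5 to 25 CPM in clone 2 and 27.8 to 47.7 CPM in wild type. Much of it was COL1A1, at 15.5 CPM in clone 1, 15 CPM in clone 2 and 25.6 CPM in wild type. Of the 5 tested, edgeR called 0 in any comparison, with 3 in clone 1, 2 in clone 2 and 1 between the clones at an unadjusted p under 0.05, and 1 in each by DESeq2. With the replicate number as a block, the fibroblast collagen gene COL1A1 was called lower in clone 2 (adjusted p = 0.00722).

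Per length, the 9 genes lay in 3 bands in clone 2 and wild type, while in clone 1 SPDEF ran into the top band. TFAP2C and NR3C1 led, at 10.5 and 11 RPKM in clone 1, 15.8 and 16.1 RPKM in clone 2, and 15.7 and 11.4 RPKM in wild type, although TFAP2C overlapped SPDEF in clone 1. GATA3, SPDEF, TFAP2A, ANKRD30A and FOXA1 followed, with group means of 0.334 RPKM for ANKRD30A in clone 2 up to 8.19 RPKM for SPDEF in clone 1. ESR1 and ELF3 were near absence, with group means of at most 0.066 RPKM. Within the bands the order differed between groups. SPDEF stood above GATA3 in clone 1 (8.19 against 2.58 RPKM) with no overlap between their libraries, whereas GATA3 and SPDEF overlapped in clone 2 (4.99 and 3.65 RPKM) and in wild type (4.07 and 3.89 RPKM). ANKRD30A stood below FOXA1 in clone 2 (0.334 against 0.935 RPKM) and above it in clone 1 (1.15 against 0.45 RPKM) and wild type (1.32 against 0.666 RPKM), with no overlap in any of the 3 groups. NR3C1 and TFAP2C overlapped in clones 1 and 2, and TFAP2A and ANKRD30A overlapped in clone 1 and wild type.

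**Figure D1:**
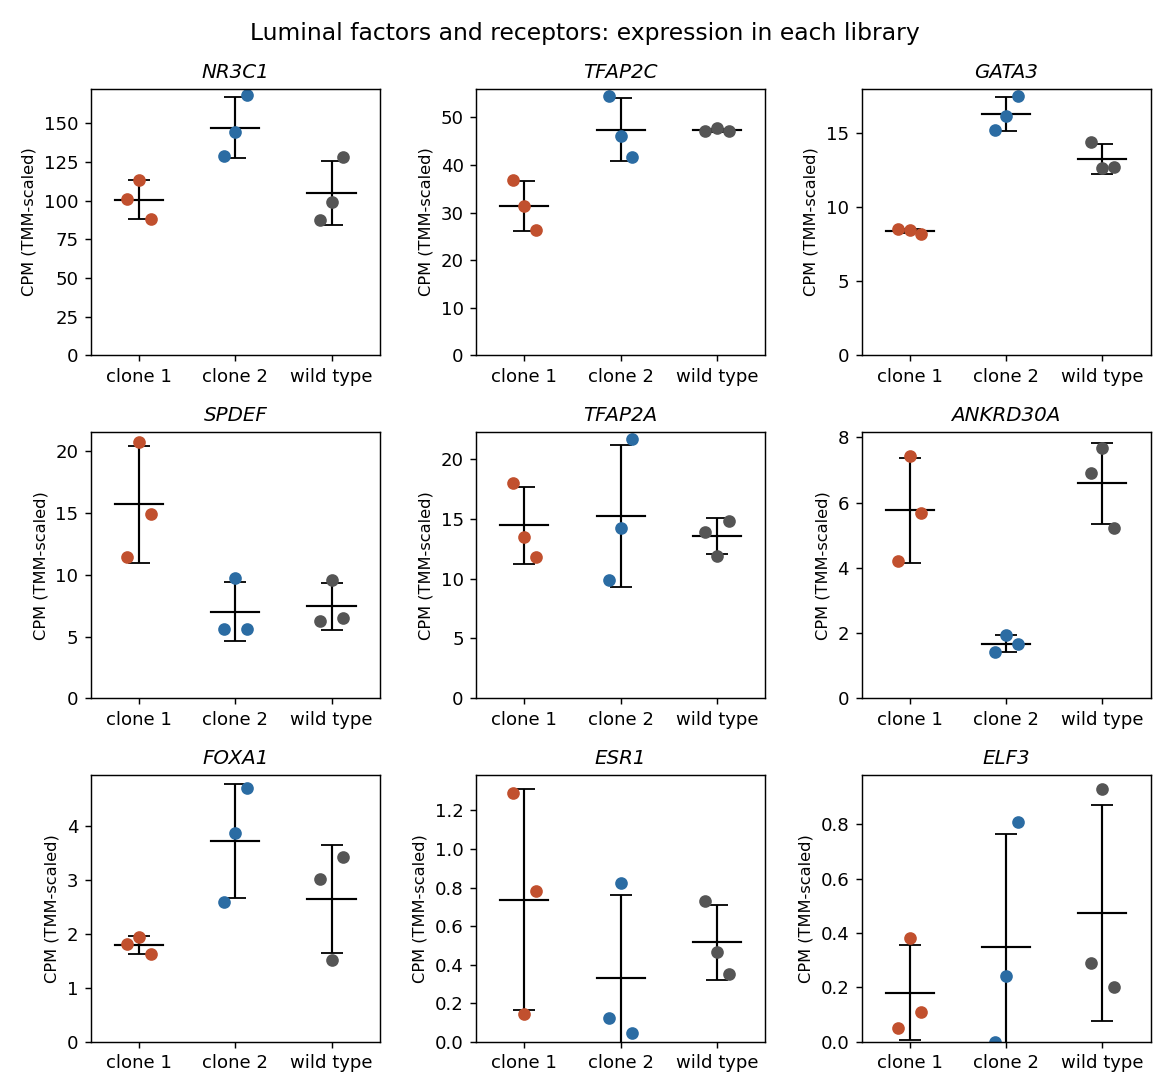
Expression of the 9 genes in each library, in CPM scaled by TMM factors, for clone 1, clone 2 and wild type. Points are single libraries, and bars show the mean ± SD of 3 libraries; each panel has its own axis from 0. ANKRD30A is low in all clone 2 libraries, GATA3 and TFAP2C are low in all clone 1 libraries, and SPDEF is high in all clone 1 libraries.

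Upstream sequences are shown for GATA3 and SPDEF, whose transcripts moved in opposite directions in clone 1, and for NR3C1, the receptor gene with the highest level. Each is the 250 bases before the gene's RefSeq start (GRCh38.p14), read 5′ to 3′ on the gene's strand: chr10:8045083-8045332 on the plus strand for GATA3, chr6:34556330-34556579 on the minus strand for SPDEF, and chr5:143404483-143404732 on the minus strand for NR3C1. Capitals mark a match to one of the motifs searched.
GATA3: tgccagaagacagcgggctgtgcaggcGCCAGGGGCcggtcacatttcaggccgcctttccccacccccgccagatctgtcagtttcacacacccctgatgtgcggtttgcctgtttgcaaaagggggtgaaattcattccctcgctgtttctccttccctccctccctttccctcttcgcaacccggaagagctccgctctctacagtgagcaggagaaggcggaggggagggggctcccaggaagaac
SPDEF: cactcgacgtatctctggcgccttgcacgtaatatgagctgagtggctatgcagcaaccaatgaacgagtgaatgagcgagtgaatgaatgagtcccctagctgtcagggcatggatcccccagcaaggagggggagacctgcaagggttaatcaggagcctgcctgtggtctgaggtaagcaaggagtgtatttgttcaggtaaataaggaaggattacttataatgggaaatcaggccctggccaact
NR3C1: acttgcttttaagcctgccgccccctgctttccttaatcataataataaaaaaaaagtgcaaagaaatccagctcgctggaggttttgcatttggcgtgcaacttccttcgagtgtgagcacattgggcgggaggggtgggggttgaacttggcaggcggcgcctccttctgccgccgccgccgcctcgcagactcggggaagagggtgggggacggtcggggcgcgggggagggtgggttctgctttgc
The motifs were GCCNNNGGC for AP-2 factors (found in 19.8% of 35116 promoters of this length), TGTTCT for the glucocorticoid receptor element (12.4%), AGGTCA for the oestrogen receptor element (12.1%), AGATAA for GATA factors (9.17%), CGGAAGT for ETS factors (5.69%), GTGGGAA for the Notch partner RBPJ (5.43%) and TGTTTAC for forkhead factors (2.98%), each searched on both strands. GATA3 held 1 AP-2 match, 223 bases before the start, and SPDEF and NR3C1 held none of the 7 motifs. RefSeq sequences were matched for 7 of the 9 genes, and of the other 4, ESR1 had 1 TGTTCT match 154 bases before its start and TFAP2A had 1 AGGTCA match 11 bases before its start. No promoter had more than 1 match, so no matches overlapped, and a match describes letters and not binding. The RefSeq starts of GATA3 and NR3C1 lie apart from the outer ends of these genes in the deposited coordinates, so the windows show 1 of several possible starts.

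GATA3 was lower in clone 1 and not in clone 2. It lies on chromosome 10 (GRCh38, 8053604 to 8075198, plus strand) and encodes a zinc finger factor of the luminal lineage and of T cells. Its raw counts were 164, 178 and 147 in clone 1 replicates 1 to 3, 245, 332 and 369 in clone 2, and 296, 298 and 253 in wild type. Scaled to library size these were 8.38 ± 0.169 CPM in clone 1, 16.2 ± 1.19 CPM in clone 2 and 13.2 ± 0.991 CPM in wild type (SD, n = 3 each). The 3 groups did not overlap: every clone 1 library was below every wild-type library, and every clone 2 library was above them. In bulk RNA, fewer expressing cells and less RNA per cell cannot be told apart. By edgeR's quasi-likelihood test with Benjamini-Hochberg adjustment over all tested genes, GATA3 fell in clone 1 (log2 fold change −0.66, SE 0.17, adjusted p = 0.0386), while the clone 2 value did not pass (0.30, SE 0.17, adjusted p = 0.305). The clone 1 call was narrow: leaving out any 1 library other than clone 2 replicate 1 ended it (adjusted p = 0.0519 to 0.149), as did testing without a filter on low counts (0.0587), fitting only the 6 libraries (0.0524) and a correction for GC content and length (0.0523). Between the knockout lines the difference was larger, with clone 2 above clone 1 (0.95 on the log2 scale, SE 0.17, adjusted p = 0.000846), and each of the 9 fits that left out a library kept this call.

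SPDEF moved the other way in clone 1. The gene is on chromosome 6 (34537802 to 34556333, minus strand) and encodes an ETS factor of secretory and luminal epithelia. It had 221, 435 and 268 counts in clone 1 replicates 1 to 3, 91, 201 and 118 in clone 2, and 128, 227 and 129 in wild type. Replicate 2 was the highest in each group, but every clone 1 library was above every library of both other groups once scaled, at 15.7 ± 4.67 CPM in clone 1, 6.99 ± 2.38 CPM in clone 2 and 7.44 ± 1.88 CPM in wild type (SD, n = 3 each). SPDEF rose 2.11-fold in clone 1 (log2 fold change 1.07, SE 0.28, adjusted p = 0.0338 by edgeR) and did not pass in clone 2 (−0.09, SE 0.28, 95% interval −0.68 to 0.50). Leaving out 1 library ended the clone 1 call for wild-type replicate 1 (adjusted p = 0.0788), wild-type replicate 3 (0.148), clone 1 replicate 2 (0.161) or clone 1 replicate 3 (0.11), with log2 fold changes of at least 0.84. Clone 2 was below clone 1 (log2 difference −1.16, SE 0.28, adjusted p = 0.00484), and leaving out any 1 library did not end that call.

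FOXA1, the forkhead pioneer factor on chromosome 14 (37589984 to 37596059, minus strand), was weakly expressed in every group. The counts were 35, 41 and 29 in clone 1, 42, 80 and 99 in clone 2, and 62, 36 and 68 in wild type. These came to 1.79 ± 0.168 CPM in clone 1, 3.72 ± 1.06 CPM in clone 2 and 2.65 ± 0.998 CPM in wild type (SD, n = 3 each), and the wild-type libraries overlapped those of both clones. Neither clone passed against wild type in edgeR (clone 1 −0.56, SE 0.38, adjusted p = 0.404; clone 2 0.50, SE 0.36, adjusted p = 0.43). All clone 2 libraries were above all clone 1 libraries, and that difference passed (log2 1.05, SE 0.37, adjusted p = 0.0387). It was lost with limma-voom (0.0535), without a filter on low counts (0.0568), and without clone 1 replicate 1, 2 or 3 (0.081, 0.0821 and 0.115) or clone 2 replicate 2 or 3 (0.0867 and 0.168).

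The AP-2 factors TFAP2A and TFAP2C bind the same kind of site, and in the breast TFAP2C (AP-2 gamma) is the one tied to luminal genes and ESR1. TFAP2C, on chromosome 20 (56629302 to 56639283, plus strand), had 710, 659 and 473 counts in clone 1, 882, 952 and 879 in clone 2, and 969, 1128 and 938 in wild type. It averaged 31.5 ± 5.22 CPM in clone 1, 47.5 ± 6.53 CPM in clone 2 and 47.3 ± 0.356 CPM in wild type (SD, n = 3 each). Clone 1 was lower without overlap, while the clone 2 libraries lay on both sides of the wild-type ones. TFAP2C fell in clone 1 (log2 fold change −0.59, SE 0.15, adjusted p = 0.0361 by edgeR) and had a log2 fold change of 0.00 in clone 2 (95% interval −0.32 to 0.33). Clone 2 was above clone 1 (0.59, SE 0.15, adjusted p = 0.00798), which did not hold without clone 1 replicate 3 (0.0519). The clone 1 call against wild type was lost without wild-type replicate 1 (0.052), 2 (0.0892) or 3 (0.113) and without clone 1 replicate 2 (0.109) or 3 (0.189).

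Neighbouring genes of TFAP2C were lower in clone 1 as well. Of 41 other tested genes whose starts lie within 5 Mb, 9 were called, each lower in clone 1, and the median log2 fold change of the 41 was −0.30. The 444 other tested genes of chromosome 20 had a median of −0.30, against −0.02 for all tested genes. In clone 2 the medians were 0.07 for the window and 0.08 for the chromosome, with 1 gene higher and 1 lower in the window. The part of this shift in the TFAP2C value was not tested. For the 7 other tested genes of the 9, the medians of the surrounding 5 Mb lay between −0.02 and 0.26 in clone 1 and between −0.13 and 0.17 in clone 2.

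**Figure D2:**
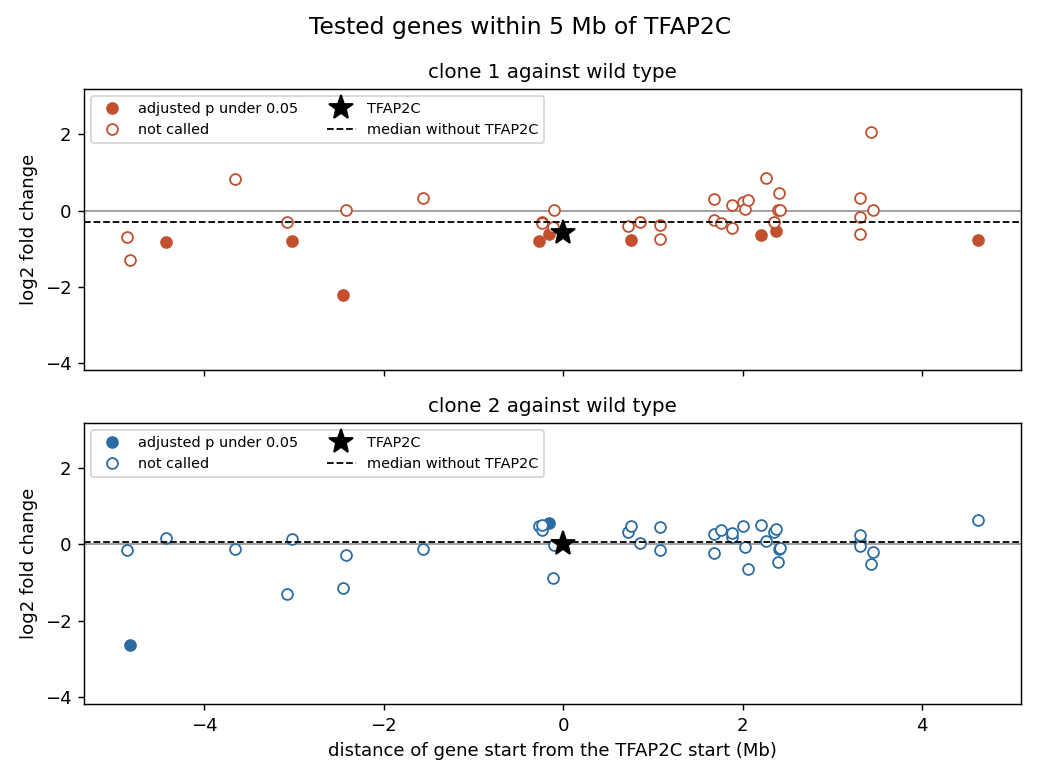
Log2 fold changes of tested genes by the distance of their start from the TFAP2C start (Mb, horizontal axis), for clone 1 against wild type above and clone 2 against wild type below. Filled points passed an adjusted p of 0.05 in edgeR, the star is TFAP2C, and the dashed line is the median of the other genes, −0.30 in clone 1 and 0.07 in clone 2.

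TFAP2A, on chromosome 6 (10393186 to 10419659, minus strand), did not separate the groups. It had 347, 283 and 211 counts in clone 1, 159, 293 and 456 in clone 2, and 286, 281 and 294 in wild type. The means were 14.4 ± 3.21 CPM in clone 1, 15.2 ± 5.97 CPM in clone 2 and 13.5 ± 1.48 CPM in wild type (SD, n = 3 each). Clone 2 held both the lowest and the highest of the 9 libraries. The log2 fold change was 0.09 in clone 1 (95% interval −0.44 to 0.62) and 0.18 in clone 2 (−0.35 to 0.70). TFAP2A-AS1 on the opposite strand shares 438 bases (5.31%) of its exons, and without a stated strand setting their reads cannot be told apart there.

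ANKRD30A gave the largest called difference from wild type of the 9 genes, and it was lower in clone 2. This gene on chromosome 10 (37125788 to 37384111, plus strand) encodes the breast antigen NY-BR-1, a differentiation marker used to recognise breast tissue. Its counts were 81, 156 and 102 in clone 1, 23, 40 and 35 in clone 2, and 142, 181 and 104 in wild type. Normalised expression was 5.76 ± 1.61 CPM in clone 1, 1.67 ± 0.257 CPM in clone 2 and 6.6 ± 1.24 CPM in wild type (SD, n = 3 each), and all clone 2 libraries were below all libraries of both other groups. ANKRD30A fell 3.92-fold in clone 2 (log2 fold change −1.97, SE 0.30, adjusted p = 0.0015 by edgeR), and the clone 1 value did not pass (−0.19, 95% interval −0.79 to 0.40). Clone 2 was also below clone 1 (−1.78, SE 0.30, adjusted p = 0.000557), and leaving out any 1 library ended neither of these calls. The family has near-identical copies between which reads can be split, so the level is uncertain. The paralogue ANKRD30B had 0, 0 and 2 counts in clone 1, 0, 1 and 0 in clone 2, and 26, 20 and 16 in wild type, a wild type to clone ratio of 28.2 for clone 1 (95% counting interval 7.48 to 238) and 56 for clone 2 (9.68 to 2247).

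ELF3, an ETS factor of differentiated epithelia on chromosome 1 (202007945 to 202017188, plus strand), had too few counts to be tested. It had 1, 8 and 2 counts in clone 1, 0, 5 and 17 in clone 2, and 6, 22 and 4 in wild type. The 3 groups overlapped. Fitted without the filter, its log2 fold changes were −1.35 in clone 1 (adjusted p = 0.556) and −0.44 in clone 2 (0.897). The antisense gene ELF3-AS1 shares 554 bases (7.7%) of its exons and had 18, 7 and 10 counts in clone 1, 6, 9 and 0 in clone 2, and 20, 19 and 19 in wild type, so some counts of each may belong to the other.

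ESR1, which encodes oestrogen receptor alpha, was barely detected in any group. The gene is on chromosome 6 (151656691 to 152129619, plus strand). It had 25, 3 and 14 counts in clone 1, 2, 17 and 1 in clone 2, and 15, 11 and 7 in wild type. Mean levels were 0.739 ± 0.577 CPM in clone 1, 0.331 ± 0.428 CPM in clone 2 and 0.515 ± 0.193 CPM in wild type (SD, n = 3 each), with libraries of each clone on both sides of wild type. The log2 fold changes of 0.51 in clone 1 and −0.60 in clone 2 did not pass in edgeR (adjusted p = 0.774 and 0.737), and the 95% intervals were wide, −1.36 to 2.37 on the log2 scale in clone 1 and −2.57 to 1.36 in clone 2. The progesterone receptor gene PGR, classically induced through ESR1 and too low to be tested, had 3, 1 and 8 counts in clone 1, none in clone 2, and 3, 9 and 0 in wild type.

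NR3C1 was the receptor gene with the highest count among the 9. It lies on chromosome 5 (143277931 to 143435512, minus strand), and the glucocorticoid receptor it encodes binds cortisol. It had 1957, 2379 and 1577 counts in clone 1, 2088, 2982 and 3544 in clone 2, and 1806, 2341 and 2540 in wild type. These were 101 ± 12.7 CPM in clone 1, 147 ± 19.7 CPM in clone 2 and 105 ± 20.6 CPM in wild type (SD, n = 3 each), and the lowest clone 2 library (129 CPM) was just above the highest wild-type library (128 CPM). NR3C1 did not pass in clone 1 (log2 fold change −0.06, SE 0.16, adjusted p = 0.871 by edgeR). In clone 2 the log2 fold change of 0.49 (SE 0.16) missed the threshold (adjusted p = 0.0818). It passed with the replicate number as a block (0.50, adjusted p = 0.0186), after the GC and length correction (0.58, 0.0265), and without wild-type replicate 3 (0.0326) or clone 2 replicate 1 (0.0401). Clone 2 was above clone 1 (0.55, SE 0.16, adjusted p = 0.0173), but not without clone 1 replicate 3 or clone 2 replicate 3 (at most 0.0915).

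Counted together, 8 of the 9 genes were tested. In clone 1 against wild type SPDEF rose and GATA3 and TFAP2C fell, 3 of 8, where edgeR called 5.51% of all tested genes (1.41% higher and 4.1% lower). In clone 2 against wild type ANKRD30A alone of the 8 was called, where 5.96% of all tested genes were (2.75% lower). These counts are from the fit without the replicate block. With the block 1 of the 8 was higher in clone 2 (NR3C1) and 1 lower, and more of all tested genes were called too. In clone 2 against clone 1, 6 of 8 were called, GATA3, FOXA1, NR3C1 and TFAP2C higher and SPDEF and ANKRD30A lower, where 33.9% of all tested genes were called (19.8% higher and 14.1% lower). The median log2 fold change of the 8 was −0.125 in clone 1, 0.09 in clone 2 and 0.32 between the clones, against −0.02, 0.00 and −0.01 for all tested genes. Libraries did not overlap for 3 of 8 in clone 1 (29.6% of all tested genes) and 3 of 8 in clone 2 (25.9%), and between the clones for 6 of 8 (47.4%). Both comparisons with wild type use the same wild-type libraries, so their values for a gene are not independent.

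**Figure D3:**
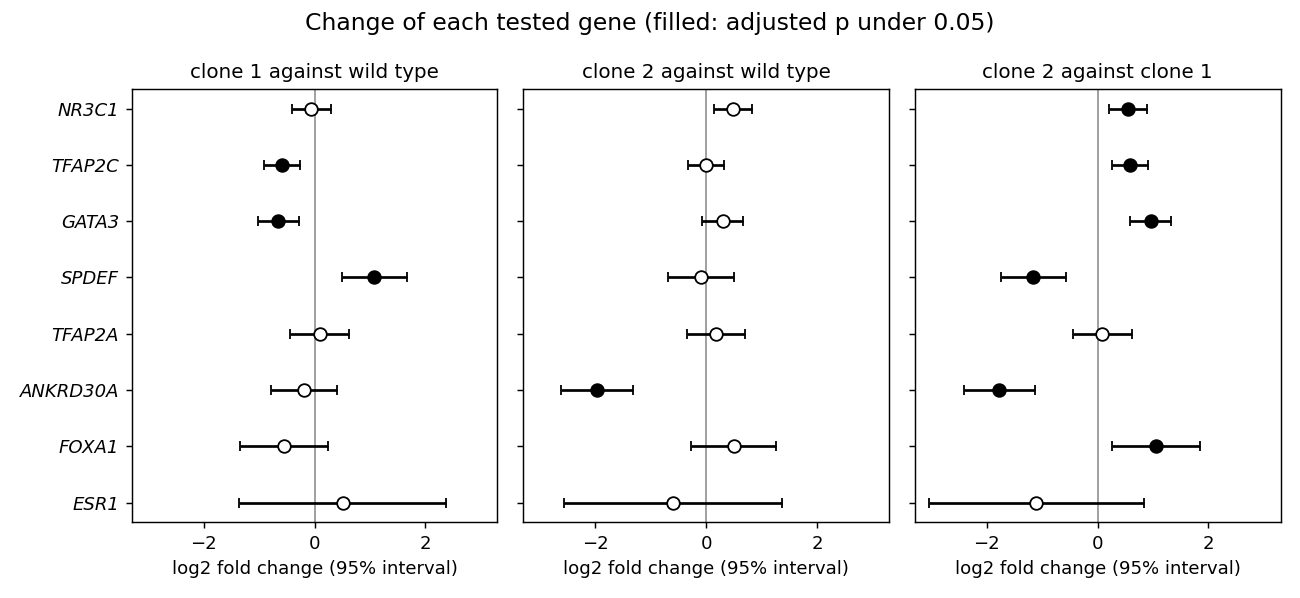
Log2 fold change of each of the 8 tested genes with its 95% interval, in clone 1 against wild type, clone 2 against wild type, and clone 2 against clone 1. Filled points passed an adjusted p of 0.05 in edgeR without the replicate block: 3 in the left panel, ANKRD30A alone in the middle, and 6 on the right.

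Some genes followed the same profile over the 9 libraries. Among tested protein-coding genes with a mean of at least 5 CPM, the highest Pearson correlations of log2 CPM with GATA3 were those of ARMCX2 (0.986), CACNG4 (0.980) and EEF1A2 (0.978). The closest to SPDEF was SMIM14 (0.963), the closest to FOXA1 was MPHOSPH10 (0.973), the closest to NR3C1 was ACBD5 (0.981), the closest to ANKRD30A was TANK (0.974), and the closest to TFAP2C was MYL9 (0.981), which is also on chromosome 20. For TFAP2A the best match reached 0.922 (PEX10) and for ESR1 0.953 (SS18L1). The 9 libraries share 3 groups and their depths, and up to 10536 genes were compared, so these values are given as a description.

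Paralogues of the 9 genes showed which relatives the line expressed. FOXA2, a liver and lung pioneer factor, stood well above FOXA1, at 12.8 ± 3.66 RPKM in wild type (SD, n = 3) against 0.666 ± 0.251. GATA6 (4.92 RPKM in wild type) was near GATA3 (4.07), while GATA1 and GATA5 were at 0 counts there. Of 15 tested relatives, 1 was higher and 1 lower in clone 1, and 2 were lower in clone 2. Of all tested genes 1.41% were called higher and 4.1% lower in clone 1, and 2.75% lower in clone 2. EHF, an epithelial ETS factor related to ELF3, rose in clone 1 and fell in clone 2. It had 25.4 ± 2.41 CPM in clone 1 (0.80 on the log2 scale, SE 0.16, adjusted p = 0.0102) and 9.42 ± 0.677 CPM in clone 2 (−0.63, SE 0.17, adjusted p = 0.0357), against 14.6 ± 0.542 CPM in wild type (n = 3 each). Clone 2 was below clone 1 (−1.43, adjusted p = 3.07e-05), whichever library was left out. The clone 1 call was lost without clone 1 replicate 2 or 3 (adjusted p at most 0.0547), and the clone 2 call without any 1 wild-type library, clone 1 replicate 2 or 3, or clone 2 replicate 3 (at most 0.162). ANKRD30B, named after its values were seen, was also called, lower in both clones (adjusted p = 0.0221 in clone 1 and 0.0154 in clone 2). It lost the clone 1 call without any 1 wild-type or clone 1 library (at most 0.104) and the clone 2 call without wild-type replicate 1 or 2 or clone 2 replicate 3 (at most 0.094). With the replicate block, 2 of the 15 were higher and 2 lower in clone 2. The block also called more of all tested genes there, as counted in the closing section. With the 6 libraries alone EHF did not pass in clone 2 (0.0868). Between the clones 2 of 15 were higher in clone 2 (19.8% of all tested genes) and 2 were lower (14.1% of all). GATA6 (0.73, adjusted p = 0.00239) and the ETS factor ELF4 (0.865, adjusted p = 0.00109) were higher. Besides EHF, ESR2, the oestrogen receptor beta gene, was lower (−2.355, adjusted p = 0.0149, and at most 0.106 without clone 1 replicate 3 or clone 2 replicate 3).

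Targets of the glucocorticoid receptor were examined as 22 genes that it is known to regulate, 21 of them tested. In clone 2, 4 rose and 1 fell against wild type, and 16 did not pass, with a list median of 0.13; of all tested genes 3.21% were called higher and 2.75% lower. With the replicate block TSC22D3, named after its values were seen, was also lower in clone 2 (adjusted p = 0.0102), making 4 higher and 2 lower. More of all tested genes were called in clone 2 with the block too. FKBP5, which encodes a co-chaperone that damps the receptor, rose to 82.7 ± 16.1 CPM in clone 2, against 45.1 ± 11.7 CPM in wild type (n = 3 each, a log2 change of 0.88, SE 0.18, adjusted p = 0.0128). DUSP1, a phosphatase of MAP kinases, averaged 20 ± 4.37 CPM in clone 2 and 10.1 ± 1.83 CPM in wild type (0.98, adjusted p = 0.0171). The metallothionein MT2A (0.84, adjusted p = 0.00971) and the insulin signalling adaptor IRS2 (0.68, adjusted p = 0.0451) rose too. CEBPD, named after its values were seen, fell in both clones (−1.24 in clone 2, adjusted p = 0.0313; −1.30 in clone 1, adjusted p = 0.0264). In clone 1, IRS2 fell as well (−0.72, adjusted p = 0.0397), and FKBP5 had a log2 fold change of −0.09 (adjusted p = 0.812). Between the clones 4 of 21 were higher in clone 2, where 19.8% of all tested genes were, and 17 did not pass. The 4 were FKBP5, DUSP1, MT2A and IRS2 (0.97, 1.43, 0.72 and 1.40), in 9 of 9 fits each. Against wild type the clone 2 calls of FKBP5 and DUSP1 were lost without wild-type replicate 1 or 2 or clone 2 replicate 3 (adjusted p at most 0.0843 and 0.119) and that of MT2A without wild-type replicate 1 or 2 (0.0606). IRS2 lost its clone 2 call without wild-type replicate 1 or 2, any 1 of the clone 1 libraries or clone 2 replicate 3 (at most 0.229), and its clone 1 call without wild-type replicate 3 or any 1 of the clone 1 libraries (at most 0.276). Correction for GC and length ended both IRS2 calls (0.0519 in clone 2 and 0.102 in clone 1), limma-voom the clone 1 call (0.0639), and the 6-library fit the clone 2 calls of IRS2 (0.0913) and CEBPD (0.0532). CEBPD lost its clone 2 call without wild-type replicate 2 or clone 2 replicate 1 or 3 (at most 0.189) and its clone 1 call without wild-type replicate 2 or 3 or any 1 of the clone 1 libraries (at most 0.138).

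The chaperones that fold the receptor and the enzymes that activate or inactivate cortisol made up a list of 10, all tested. HSD11B1, the enzyme that makes cortisol from cortisone, had 216, 241 and 203 counts in clone 1, 60, 33 and 24 in clone 2, and 39, 46 and 51 in wild type. It rose in clone 1 to 11.3 ± 0.137 CPM, against 2.14 ± 0.373 CPM in wild type (n = 3 each, a log2 change of 2.41, SE 0.35, adjusted p = 0.001), whichever library was left out. The co-chaperone DNAJA1 rose in clone 2 to 445 ± 44.9 CPM and fell in clone 1 to 145 ± 14.5 CPM, against 222 ± 47.6 CPM in wild type (log2 fold changes 1.01 and −0.61, adjusted p = 0.00309 and 0.0452). FKBP4, the co-chaperone that promotes hormone binding, fell in clone 1 (−0.64, adjusted p = 0.0429) and had a log2 fold change of 0.53 in clone 2 (adjusted p = 0.0788, and 0.0173 with the replicate block). In clone 2, 1 of the 10 was higher (3.21% of all tested genes were). With the replicate block 4 were, and more of all tested genes were called too. Between the clones 6 chaperones were higher in clone 2 (19.8% of all tested genes were), and HSD11B1 (−2.42, adjusted p = 0.000186) and H6PD (−1.04, adjusted p = 0.0418, kept when 3 of the 9 libraries were left out singly, and 0.0701 with no filter on low counts) were lower (14.1% of all). DNAJA1 kept its clone 2 call throughout and lost its clone 1 call without wild-type replicate 2 or 3, any 1 of the clone 1 libraries or clone 2 replicate 2 (at most 0.28) and with RLE size factors (0.0541). FKBP4 lost its clone 1 call without wild-type replicate 3 or clone 1 replicate 2 or 3 (at most 0.233) and under GC and length correction (0.097).

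Other hormone and nuclear receptors numbered 29, of which 27 were tested. In clone 1, 6 of the 27 were called and all 6 were lower, for a list median of −0.445, where 4.1% of all tested genes were called lower. THRA, the thyroid hormone receptor alpha gene, fell to 16 ± 2.12 CPM in clone 1, against 27.1 ± 3.6 CPM in wild type (n = 3 each, a log2 change of −0.76, SE 0.17, adjusted p = 0.0167), and NR2F1 fell by 0.69 on the log2 scale (adjusted p = 0.0405). Named after their values were seen, the growth hormone receptor gene GHR (−3.79), the oxytocin receptor gene OXTR (−1.74) and THRB (−1.41) also fell in clone 1. In clone 2 the orphan receptor gene NR2F2 rose (184 ± 31.5 CPM in clone 2 and 111 ± 29.2 CPM in wild type, n = 3 each, a log2 change of 0.73, adjusted p = 0.0294), and 3 fell, among them PRLR (−1.97) and PPARG (−0.98), both named after their values were seen. Between the clones 13 of 27 were higher in clone 2 (19.8% of all tested genes) and PRLR was lower (14.1% of all). With the replicate block, 2 receptors were higher and 4 lower in clone 2, where more of all tested genes were called too. In clone 1, THRA lost its call without wild-type replicate 2 or any 1 of the clone 1 libraries (at most 0.0855), NR2F1 without any 1 wild-type or clone 1 library or clone 2 replicate 2 (at most 0.187) and under GC and length correction (0.0601), OXTR without wild-type replicate 1 or 3 or any 1 of the clone 1 libraries (at most 0.158), THRB without wild-type replicate 2 or 3 or any 1 of the clone 1 libraries (at most 0.0988), and GHR without clone 1 replicate 2 (0.056). In clone 2, NR2F2 lost its call without wild-type replicate 1 or 2, clone 1 replicate 2 or clone 2 replicate 3 (at most 0.158), PRLR without wild-type replicate 1 or 2, clone 1 replicate 2 or 3, or clone 2 replicate 1 or 3 (at most 0.173), and PPARG without wild-type replicate 2 (0.0626). OXTR did not pass with limma-voom (0.0657), nor NR2F2 and PRLR with the 6 libraries alone (0.0714 and 0.0892).

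**Figure D4:**
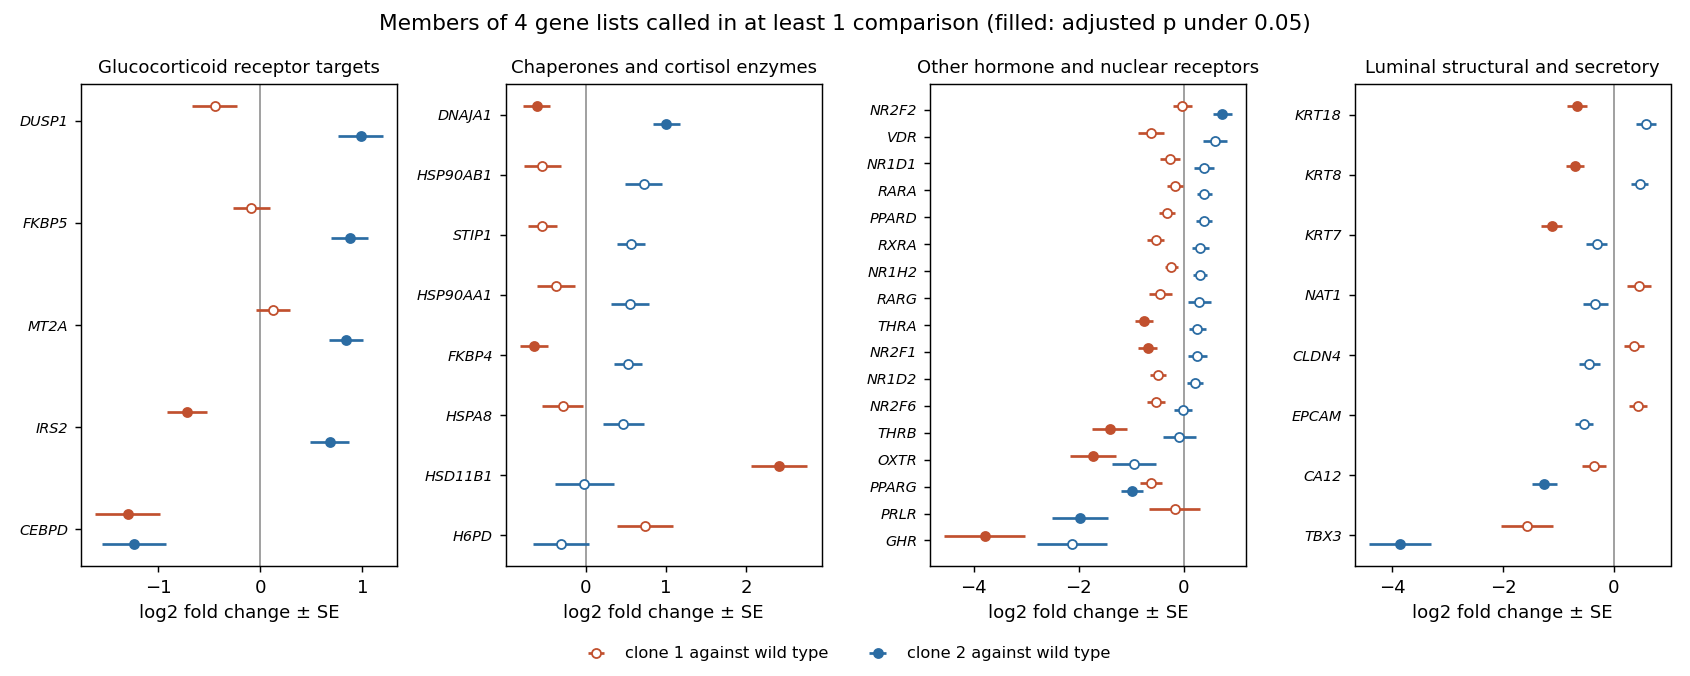
Log2 fold change ± SE against wild type in clone 1 and clone 2, for genes of 4 lists that were called in at least 1 of the 3 comparisons. Filled points passed an adjusted p of 0.05 in edgeR. One called receptor gene is not drawn. A gene could be drawn through a call between the clones alone, a choice that favours values on opposite sides of 0. Many of the genes drawn lie on opposite sides of 0 in the clones. Among them, DNAJA1, IRS2, KRT8 and KRT18 are above 0 in clone 2, and EPCAM is above 0 in clone 1.

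Targets of the oestrogen receptor ranged from near 0 to high levels. TFF1, a classical target, had 0, 4 and 3 counts in clone 1, 0, 3 and 0 in clone 2, and 1, 0 and 0 in wild type, whereas CCND1, which encodes cyclin D1, stood at 70.8 RPKM in wild type. Of 14 tested targets, 1 was called lower in clone 1 and 0 higher, where 4.1% of all tested genes were called lower. It was NRIP1, a corepressor of the receptor (7.85 ± 0.924 CPM in clone 1 and 15.6 ± 2.13 CPM in wild type, n = 3 each, a log2 change of −0.99, adjusted p = 0.0135). In clone 2 CCND1 rose (0.58, adjusted p = 0.0463) and RERG, a small GTPase that slows growth, fell (−2.57, adjusted p = 0.000843). There 3.21% of all tested genes were called higher and 2.75% lower. RERG had 20, 29 and 11 counts in clone 2 and 151, 141 and 107 in wild type, and no left-out library ended its call. Between the clones 4 of 14 were higher in clone 2 (19.8% of all tested genes) and 1 was lower (14.1% of all). With the replicate block 2 targets were higher and 2 lower in clone 2 against wild type, where more of all tested genes were called too. CCND1 lost its call without wild-type replicate 1 or 2, any 1 of the clone 1 libraries or clone 2 replicate 3 (adjusted p at most 0.203), with RLE size factors (0.0513) and with the 6 libraries alone (0.106), and NRIP1 without wild-type replicate 3 or clone 1 replicate 2 or 3 (at most 0.0897).

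Structural and secretory genes of luminal cells did not move as a block. In clone 1, 3 of 22 fell (4.1% of all tested genes), the simple keratins KRT8 (255 ± 36.1 CPM in clone 1 and 414 ± 43.4 CPM in wild type, n = 3 each, a log2 change of −0.70, adjusted p = 0.0209), KRT18 (−0.67, adjusted p = 0.0396) and KRT7 (−1.12, adjusted p = 0.00329, named after its values were seen). In clone 2, 2 of 22 fell (2.75% of all tested genes), TBX3, a T-box repressor (5, 3 and 3 counts in clone 2 and 45, 89 and 54 in wild type, log2 fold change −3.86, adjusted p = 0.00102), and the carbonic anhydrase CA12 (−1.26, adjusted p = 0.00498, named after its values were seen). With the replicate block, KRT8 and KRT18 passed as higher in clone 2 (adjusted p = 0.0356 and 0.0122) and the clone 2 list had 2 higher and 5 lower. The block called more of all tested genes in clone 2 as well. Between the clones 3 of 22 were higher in clone 2 (19.8% of all tested genes), KRT8 (1.16), KRT18 (1.26) and KRT7 (0.81). Another 5 were lower (14.1% of all), among them EPCAM, an adhesion molecule of epithelia (−0.98, adjusted p = 0.000452). Against wild type, TBX3, CA12 and KRT7 kept their calls whichever library was left out, and so did EPCAM between the clones. KRT8 lost its clone 1 call against wild type without wild-type replicate 2 or 3 or clone 1 replicate 1 or 3 (adjusted p at most 0.126). KRT18 lost its clone 1 call without wild-type replicate 3 or any 1 of the clone 1 libraries (at most 0.212). Correction for GC and length ended both (0.059 and 0.0638). The median log2 fold change of the 22 was −0.266 in clone 1 and −0.104 in clone 2, against −0.016 and 0.001 for all tested genes. The summed level of the 30 genes was 1010 to 1241 CPM in clone 1, 1595 to 1850 CPM in clone 2 and 1421 to 1598 CPM in wild type. Keratins dominated this sum, with KRT8, KRT7 and KRT18 at 414, 242 and 219 CPM in wild type, so it does not describe the list as a whole.

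Cofactors that the 9 proteins recruit, such as the coactivator CREBBP, were all expressed and all 19 tested. In clone 1, 0 of 19 were called by edgeR, with 5 at an unadjusted p under 0.05, and 1 by DESeq2. In clone 2, KCTD15, which represses AP-2 activity, was called lower (18, 54 and 27 counts in clone 2 and 118, 228 and 88 in wild type, log2 fold change −1.97, adjusted p = 0.0313, named after its values were seen). That call needed wild-type replicates 1 and 2, clone 1 replicate 2 and clone 2 replicates 1 and 3, each of which ended it when left out (at most 0.186), and it did not pass with limma-voom (0.0635). Under the replicate block 4 cofactors passed as higher in clone 2, where the block called more of all tested genes too. Between the clones 8 of 19 were higher in clone 2 (19.8% of all tested genes), among them the mediator subunit MED1 (0.75, adjusted p = 0.00138), CREBBP (0.80, adjusted p = 0.00108) and CITED2 (0.86, adjusted p = 0.00198), in 9 of 9 fits each.

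Basal and mesenchymal markers moved beside these genes. Their summed level over 20 genes was 2469 to 3147 CPM in clone 1, 3666 to 5125 CPM in clone 2 and 3125 to 4285 CPM in wild type. VIM, FN1 and CD44 dominated this sum, with 77340, 62524 and 68190 counts over the wild-type libraries, so it does not describe the list as a whole. In clone 1, 6 of 17 tested markers fell and 1 rose (4.1% and 1.41% of all tested genes), including SPARC, a secreted matrix glycoprotein (−4.27, adjusted p = 2.91e-07), and MYLK, the myosin light chain kinase (−1.12, adjusted p = 0.00531). In clone 2, 2 of 17 rose and 1 fell (3.21% and 2.75% of all tested genes), and 14 did not pass. SPARC fell there (−4.60, adjusted p = 6.49e-07) and VIM rose (0.69, adjusted p = 0.0491). KRT15, named after its values were seen, rose in both clones (0.86 in clone 2, adjusted p = 0.0383, and 1.02 in clone 1, adjusted p = 0.0179). In clone 2, 3 markers were higher and 4 lower with the replicate block, which called more of all tested genes too. VIM lost its call without wild-type replicate 1 or 2, any 1 of the clone 1 libraries or clone 2 replicate 3 (adjusted p at most 0.214), with RLE size factors (0.0529) and with the 6 libraries alone (0.115). KRT15 lost its clone 2 call without any 1 wild-type library, clone 1 replicate 2 or 3, or clone 2 replicate 2 or 3 (at most 0.149) and with the 6 libraries alone (0.0894), and its clone 1 call without wild-type replicate 3 or clone 1 replicate 2 or 3 (at most 0.103). The part of these shifts in the values of the 9 genes was not tested.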

How the data were processed

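Bulk RNA was sequenced in 9 libraries (3 of JAG1 knockout clone 1, 3 of clone 2 and 3 of wild-type MDA-MB-231-D3H2LN) and analysed from 2 tables. The values are raw counts per gene as the authors deposited them, and the wild-type columns, identical in both tables (3 of 3), were used once. No column of per-sample values was left unused (0). The build was GRCh38, and the tools DESeq2, featureCounts, STAR and Subread were listed, per the submitters' processing notes. Reads of overlapping genes cannot be told apart, with strandedness, tool versions and annotation release not given in the sources used here. Total counts ran from 16890890 to 22456164, and 31961 of 56505 symbols had a count. Reads carry no molecular identifiers, so counting intervals cover counting error only.

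The 9 genes, the 9 other gene lists (general knowledge) and the tests were chosen with earlier results of these data known. Counts were tested in R 4.3.3 with edgeR 4.0.16 (TMM, filterByExpr with a minimum count of 10, 16921 genes, quasi-likelihood fit with robust priors, 3 groups over 9 libraries, 6 residual degrees of freedom, two-sided). Calls are adjusted p under 0.05 (Benjamini-Hochberg, over all tested genes). The biological coefficient of variation was 20.3%. CPM and RPKM use TMM-scaled totals, and RPKM the deposited gene length. Intervals of fold changes are 95% intervals from the fit. The fit was tested on simulated data. Alternatives were RLE size factors, no filter (31961 genes), DESeq2 1.42.0, limma-voom (limma 3.58.1), the 6 libraries compared, a replicate block, a correction for GC content and length (known for 87.3% of tested genes), both together, and leaving out each library. A replicate block in the 6-library fit was added after seeing the data.

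Same-numbered libraries of clone 2 and wild type deviated together from their group means (correlations 0.193, 0.249 and 0.217). These numbers were therefore taken as possible pairs, although the labels do not say what a number marks. For clone 1 and wild type (0.219, 0.076 and −0.081) and the 2 clones (0.196, −0.023 and 0.013) they were not. The fit reported has no block in any comparison and so leaves any such pairing out. Results with the block are given as an alternative.

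The genes named are the 9, JAG1, from each list up to 4 members with the smallest adjusted p (for paralogues, receptors and receptor targets also the 4 with the highest RPKM), the 3 genes with the most similar profile, and genes within 10 kb. Any other gene was named after its values were seen, and some list members are not reported here. Promoter sequences are RefSeq's for GRCh38.p14.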

Additional observations from a re-analysis of the deposited data

Results flagged for a closer look

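Between the knockout clones, 6 of the 8 tested genes differed in edgeR's test, which is a test of the difference between the clone 2 and clone 1 effects, since both are set against the same wild-type libraries. The log2 difference, clone 2 over clone 1, was 0.955 for GATA3, 1.055 for FOXA1, 0.547 for NR3C1 and 0.591 for TFAP2C, each higher in 3 of 3 clone 2 libraries, and −1.164 for SPDEF and −1.776 for ANKRD30A, each lower in 3 of 3. In this comparison 33.9% of all tested genes were called.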

How the results depend on the processing

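With no filter on low counts, DESeq2, the replicate block, the GC and length correction with the block, and the 6-library fit with the block, clone 1 had 1512, 1479, 2322, 2047 and 1900 genes called against 933 in the fit reported, and clone 2 had 1663, 1818, 2699, 3353 and 4320 against 1008. Clone 2 had 416 with the 6 libraries alone and 1620 with the GC and length correction alone. Counts of list members in clone 2 with the replicate block are to be read against its 2699 of 16921 tested genes. Of the 9 genes, 2 were called in clone 2 with the block, with the correction, with both, and in the 6-library fit with the block (NR3C1 with ANKRD30A). With a library left out, genes called ranged from 200 to 1301 in clone 1, 237 to 1584 in clone 2 and 3639 to 5782 between the clones, and of the 9 from 0 to 3, 1 to 2 and 3 to 6.

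Some values changed sign, none of them called. With the GC and length correction, alone and with the block, log2 fold changes were 0.020 and 0.030 for NR3C1 in clone 1, 0.081 and 0.064 for SPDEF in clone 2, and −0.095 and −0.113 for TFAP2A between the clones. TFAP2C in clone 2 was −0.015 with RLE, −0.033 with no filter, −0.015 with DESeq2, −0.009 with limma-voom, −0.006 with the 6 libraries, −0.008 with the block and −0.015 with both. With a library left out, values ran from −0.18 to 1.01 (ESR1), −0.18 to 0.12 (NR3C1) and −0.10 to 0.21 (TFAP2A) in clone 1, from −0.43 to 0.12 (SPDEF), −0.17 to 0.43 (TFAP2A) and −0.089 to 0.079 (TFAP2C) in clone 2, and from −0.27 to 0.32 (TFAP2A) between the clones. The causes were not tested. The replicate block changed no call of the 9 genes in clone 1 or between the clones. The low counts of ESR1 and ELF3 limit what could be detected.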
